A study of Mus musculus with 8 samples.

Results

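The collagen chain genes of the mouse were followed across 8 arrays of whole newborn lung. Members were all probe sets whose single gene symbol in the platform annotation is Col, a number, the letter a and a number. This gave 44 probe sets for 31 genes, out of 12422 probe sets on the array, whose single symbols name 8251 genes. Of these, 30 probe sets for 20 genes had a mean signal above 200.8, the filter on low signals, and were among the 7309 probe sets tested. No tested member had a signal at or under 85.3, the floor to which lower signals were set. The other 14 probe sets are described by their signals alone, and 11 genes had no tested probe set.

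The arrays fall into 4 groups of 2, lettered a and b. RA-Dex lungs came from mice given retinoic acid on day 3 and dexamethasone on day 4. Dex lungs had oil and then dexamethasone, RA lungs had retinoic acid and then saline, and Dil lungs, a name that no label explains, were taken as the oil and saline arm because no other arm was left. Every group had therefore received 2 treatments, and the title of the series names septation, its inhibition and its protection, without saying which agent does which. The sources used here name no strain, dose or time of collection and do not say how many animals stand behind an array, so the p-values measure the spread between these arrays, which may be technical.

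Collagens are triple helices of 3 chains with glycine recurring at a fixed interval. Fibrillar types I, III and V carry tensile load, type IV forms the sheet of basement membranes, type VI forms beaded filaments around cells, and other types sit on fibrils or in the cell membrane. In the lung, collagens of the interstitium are made mainly by fibroblasts and myofibroblasts, and those of the capillary and epithelial basement membranes by endothelium, epithelium and their neighbours. During septation the walls that divide the air sacs are laid down around a core of fibroblasts, elastin and collagen. Glucocorticoids such as dexamethasone act through a nuclear receptor, and in newborn rodents they halt septation, which retinoic acid is known to promote.

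Lung identity was plain in every array. The summed signal of 8 measured lung epithelium markers lay between 136989 and 184214, with 0 of the 8 at the floor on all arrays. The Dil arrays stood apart in marker sums of skeletal muscle, smooth muscle and myofibroblasts, and squamous epithelium. Skeletal muscle markers summed to 4972 and 5002 in RA-Dex, 4609 and 3837 in Dex, 5533 and 3814 in RA, and 7359 and 7915 in Dil, over 13 markers of which 0 were at the floor on all arrays. The higher muscle sums in Dil rest mainly on Acta1 (2198 and 1314 in Dil) and Myl1 (1028 and 1100). For Pvalb (1393 and 2855 in Dil), Tnnc2 (517 and 447) and Actn3 (244 and 244) the Dil arrays overlapped with the others. Smooth muscle and myofibroblast markers summed to 33717 to 35800 in RA-Dex, 31396 to 31740 in Dex, 34113 to 35863 in RA, and 40419 to 41590 in Dil, over 8 markers with 0 at the floor throughout. Squamous epithelium markers summed to 2802 to 3870 in RA-Dex, 3690 to 4610 in Dex, 2850 to 3823 in RA, and 5473 to 9354 in Dil, over 9 markers of which Krt14 was at the floor on all arrays. The higher squamous sums in Dil rest mainly on Krt4 (4680 and 2553 in Dil), Krt6a (1885 and 980) and Krt13 (1092 and 350). Krt5, Krt10, Krt1 and Lor were not raised in Dil. In whole lung, fewer cells of a type and less RNA per cell cannot be told apart.

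In the average over both day 3 treatments, Col13a1 was the only collagen gene that passed the test for dexamethasone, with a lower signal. Col9a1 and the tested Col18a1 probe sets had negative values too, which did not pass. When the RA-Dex and Dex arrays were set against the RA and Dil arrays, 0 of 30 collagen probe sets passed as higher and 2, both of Col13a1, as lower. Of all tested probe sets 4.26% and 3.57% did so, or 7.83% in either direction. At an unadjusted p under 0.05 the count was 7 of 30, against 21.3% of all. The median log2 fold change was -0.10 over the collagen probe sets and -0.03 over all. For 21 of the 30 probe sets, from 15 genes, the 95% interval of this change lay within 1.5-fold in either direction, as it did for 48.3% of all tested probe sets. Within 2-fold lay 27 of 30, against 85.4% of all. Between single groups the intervals were wider, and within 1.5-fold lay 13 of 30 in Dex against Dil, 10 of 30 in RA-Dex against RA, 10 of 30 in RA against Dil and 15 of 30 in RA-Dex against Dex, against 22.9%, 22.1%, 28% and 31.1% of all. These intervals are not adjusted for the number of probe sets.

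**Figure D1:**
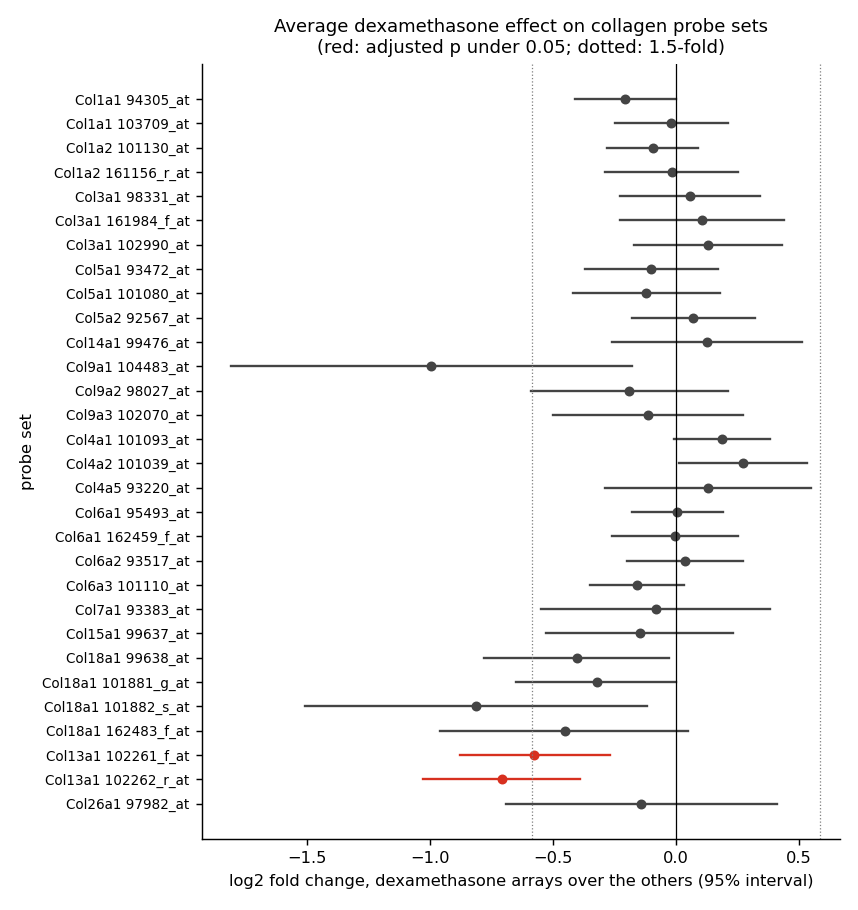
Log2 fold change of each tested collagen probe set, dexamethasone arrays over the others, with its 95% interval from limma, one row per probe set. The 2 Col13a1 rows in red passed an adjusted p of 0.05, and the intervals of 21 of the 30 rows lie between the dotted lines at 1.5-fold.

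Col13a1 encodes the chain of type XIII collagen, which is not secreted into fibrils but spans the cell membrane at adhesion sites. It is known from the neuromuscular junction, and in the mouse lung it marks one kind of matrix fibroblast. The gene was measured by 102262_r_at and 102261_f_at, both drawn from a single database sequence, and the array maker's letters r and f mark probe sets that could not meet every rule for a unique design. Since these are separate readings of 1 transcript, they count as 1 gene.

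Probe set 102262_r_at of Col13a1 had signals of 463 and 554 in RA-Dex and 456 and 485 in Dex, against 934 and 848 in RA and 695 and 737 in Dil. All 4 dexamethasone arrays lay below all 4 others. The average change was to 0.612 of the level (adjusted p = 0.0131; a log2 fold change of -0.71 ± 0.146, SE, 4 arrays against 4). Probe set 102261_f_at of Col13a1 had signals of 1806 and 1748 in RA-Dex and 1587 and 1501 in Dex, against 3505 and 2383 in RA and 2276 and 1961 in Dil. Again the dexamethasone arrays did not overlap with the others, and the level was 0.67 of theirs (-0.58 ± 0.139, adjusted p = 0.0287). In both readings the RA arrays were the highest of all and the RA-Dex arrays were lower than the Dil arrays.

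Within the arms, each with 2 arrays against 2, the Col13a1 values had the same sign but did not pass. RA-Dex against RA gave -0.81 ± 0.206 for 102262_r_at and -0.70 ± 0.197 for 102261_f_at (adjusted p = 0.0616 and 0.0886). Dex against Dil gave -0.61 ± 0.206 and -0.45 ± 0.197 (adjusted p = 0.176 and 0.311). The difference between the arms, -0.21 ± 0.292 and -0.25 ± 0.278, did not pass (adjusted p = 0.952 and 0.947). The average call for Col13a1 was sensitive to single arrays. The call of 102262_r_at was lost without Dex replicate a (adjusted p = 0.0522) or RA-Dex replicate a (0.0559). That of 102261_f_at was lost in 6 of 8 such fits. Leaving out either RA-Dex array gave 0.0784 (a) and 0.107 (b), leaving out either Dex array gave 0.0799 (a) and 0.105 (b), and the fits lacking array a of RA or of Dil gave 0.0637 and 0.0816. It was also lost when low signals were kept (0.143) or when variance was not tied to intensity (0.083). Without both Dil arrays, set against RA alone, the values were -0.87 ± 0.187 and -0.80 ± 0.174 and the calls stood (adjusted p = 0.0257 for each). A comparison with RA alone also holds any effect of retinoic acid, and the RA arrays were the highest, so it is not the same contrast.

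Markers of cell types were read in the average dexamethasone effect. In it 4.26% of all tested probe sets rose and 3.57% fell, with a median of -0.03. Of 7 skeletal muscle markers tested, 0 rose and 1 fell, with a median of -0.46. The 1 was Myl1, a light chain of fast muscle myosin (-1.36 ± 0.243, adjusted p = 0.00605; 0.228 without both Dil arrays). Of 8 smooth muscle and myofibroblast markers, 0 rose and 2 fell, with a median of -0.12. These were Tagln (-0.47 ± 0.111, adjusted p = 0.0253) and Actg2 (-0.45 ± 0.103, adjusted p = 0.0235), whose calls were lost in 5 and 6 of the 8 fits without 1 array and, without both Dil arrays, at adjusted p = 0.0799 and 0.40. Of 10 fibroblast markers that are not collagens, 2 rose, Dpt and Pdgfra, and 0 fell, with a median of -0.27. Pdgfra, a growth factor receptor of lung fibroblasts, gave 0.87 ± 0.119 (adjusted p = 0.00117) by 95079_at and 0.05 (adjusted p = 0.945) by 160332_at. The summed signal of 11 measured fibroblast markers was 26601 to 27421 in RA-Dex, 24995 to 26205 in Dex, 22990 to 23132 in RA and 24901 to 26017 in Dil, with 0 at the floor on all arrays, and the few markers of highest signal carry most of it. Of 10 endothelial markers, 0 rose and 1 fell, Kdr (-0.86 ± 0.122, adjusted p = 0.00148 in limma), with a median of -0.13. Of 7 lung epithelium markers, 2 rose and 0 fell, with a median of 0.08. These were Hopx (0.62 ± 0.0938, adjusted p = 0.00207) and Pdpn (1.145 ± 0.224, adjusted p = 0.0097). The part of these cell types in the Col13a1 values was not tested.

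**Figure D2:**
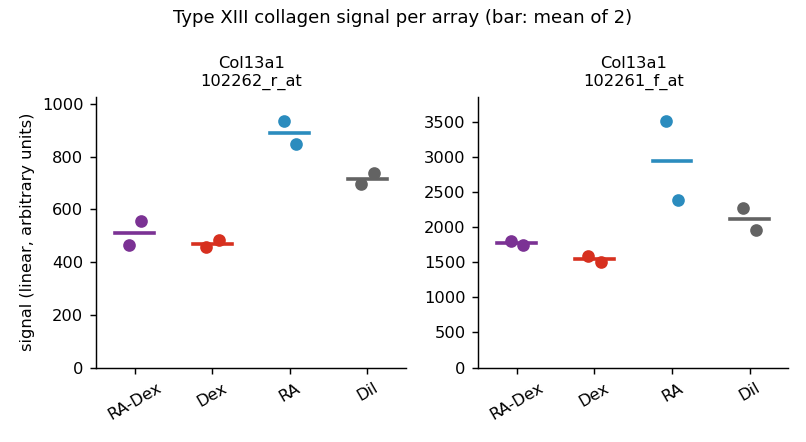
Signal of the 2 Col13a1 probe sets on each of the 8 arrays, by group, on a linear axis from 0, with points for arrays and a bar for the mean of 2. RA-Dex and Dex arrays lie below every RA and Dil array in both panels, between 456 and 554 for 102262_r_at against 695 to 934.

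The sequence before the annotated start of Col13a1 is shown because this is the collagen gene that passed the test. It comes from RefSeq (GRCm38.p6), chr10:61979109-61979358, minus strand, and holds the 250 bases before the start, 5′ to 3′. Capitals mark a TATAAA match 237 bases before the start, upstream of where a TATA box sits.
Col13a1: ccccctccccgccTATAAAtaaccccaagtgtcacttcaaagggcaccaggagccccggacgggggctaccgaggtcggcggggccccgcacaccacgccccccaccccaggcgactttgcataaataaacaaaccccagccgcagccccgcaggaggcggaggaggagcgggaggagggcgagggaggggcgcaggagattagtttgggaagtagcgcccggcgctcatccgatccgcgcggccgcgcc
The motif AGAACA, the half-site of the glucocorticoid receptor, was searched on both strands and does not occur in these letters. Windows of 250 bases were given for 22 of the 31 collagen genes, 25 windows in all, and 1 of them, before 1 of the Col9a1 starts, held AGAACA, against 16.1% of the 32851 windows of all genes. The full palindrome, this half-site followed after 3 bases by its reverse complement TGTTCT, was in 0 of the 25 and in 0.00913% of all. The half-site of retinoic acid receptors, AGGTCA, was in 4 of the 25 and in 14.0% of all, and TATAAA was in 5 of the 25 and in 12.4% of all.

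Type I collagen, the main load-bearing fibril, is built of 2 chains from Col1a1 and 1 from Col1a2. Each of its genes had 1 probe set that was highest in the Dil arrays. Probe set 94305_at of Col1a1 had signals of 21020 and 17652 in RA-Dex, 18060 and 17318 in Dex, 19888 and 18670 in RA, and 21882 and 25430 in Dil. Probe set 101130_at of Col1a2 had 15776 and 14119 in RA-Dex, 14328 and 13292 in Dex, 13648 and 13861 in RA, and 16978 and 17108 in Dil. In both of these probe sets the 2 Dil arrays were above the 6 others. Among the treated groups, Dex lay below RA in Col1a1 and RA lay below RA-Dex in Col1a2, and the other pairs overlapped.

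By these probe sets, Dex against Dil gave -0.42 ± 0.131 for Col1a1 and -0.30 ± 0.118 for Col1a2 (adjusted p = 0.137 and 0.245). RA against Dil gave -0.29 ± 0.131 and -0.31 ± 0.118 (adjusted p = 0.616 and 0.546). In RA-Dex against RA, which uses no Dil array, the values were 0.00 ± 0.131 and 0.12 ± 0.118 (adjusted p = 0.999 and 0.696), with 95% intervals of -0.29 to 0.29 and -0.14 to 0.38. None of these passed. Dex against Dil and RA against Dil share the Dil arrays, which were also the highest in skeletal and smooth muscle marker sums. The part of those cell types in the type I values was not tested. The second probe sets did not show the same order. Probe set 103709_at of Col1a1 had 9986 and 9389 in RA-Dex, 9710 and 7482 in Dex, 8440 and 9339 in RA, and 9305 and 9781 in Dil. Probe set 161156_r_at of Col1a2 had 1964 and 1733 in RA-Dex, 2005 and 2342 in Dex, 2387 and 2011 in RA, and 1991 and 1755 in Dil. There the Dex and RA arrays lay above both Dil arrays, the opposite order. Dex against Dil gave 0.21 ± 0.173 and RA against Dil 0.23 ± 0.173 (adjusted p = 0.646 and 0.807 in limma).

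The 250 bases before the start of Col1a2 (RefSeq, GRCm38.p6, chr6:4505368-4505617, plus strand) are given as the promoter of a type I chain, with a CCAAT match 109 bases before the start in capitals.
Col1a2: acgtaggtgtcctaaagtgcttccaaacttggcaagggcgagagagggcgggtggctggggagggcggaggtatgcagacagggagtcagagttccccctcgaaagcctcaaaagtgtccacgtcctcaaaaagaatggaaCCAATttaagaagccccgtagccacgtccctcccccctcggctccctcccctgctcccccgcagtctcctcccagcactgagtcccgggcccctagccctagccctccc
CCAAT, read on both strands, was found in 9 of the 25 collagen windows and in 33.8% of all windows. The GC box GGGCGG, also on both strands, was in 12 of 25 and in 32.7%. AGAACA does not occur in the Col1a2 letters.

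None of the partner fibrillar chains passed. Col3a1, the chain of the pliable type III fibrils of vessels and lung, had signals by 98331_at of 7395 and 10492 in RA-Dex, 7374 and 7072 in Dex, 6810 and 6948 in RA, and 9796 and 7477 in Dil. The RA-Dex and Dil pairs each held 1 high array, and the average dexamethasone effect was 0.06 ± 0.129 (adjusted p = 0.859). The other Col3a1 probe sets gave 0.13 ± 0.134 and 0.10 ± 0.152. Type V chains, which set the diameter of type I fibrils, gave -0.10 ± 0.122 and -0.12 ± 0.136 for Col5a1 and 0.07 ± 0.114 for Col5a2. Col5a2 had 6740 and 6798 in RA-Dex, 6788 and 6032 in Dex, 5942 and 5369 in RA, and 8057 and 6005 in Dil, and the RA arrays were below all others. Over the 10 fibrillar probe sets of 5 genes, average log2 fold changes with dexamethasone ran from -0.21 to 0.13 with a median of -0.02. For some of them the values of the arms differ in sign. The median was 0.12 in RA-Dex against RA (-0.25 to 0.36) and -0.16 in Dex against Dil (-0.42 to 0.21). Col3a1 by 98331_at gave 0.36 ± 0.183 in RA-Dex against RA and -0.25 ± 0.183 in Dex against Dil (adjusted p = 0.39 and 0.605), and Col5a2 gave 0.26 ± 0.161 and -0.12 ± 0.161 (adjusted p = 0.486 and 0.804).

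**Figure D3:**
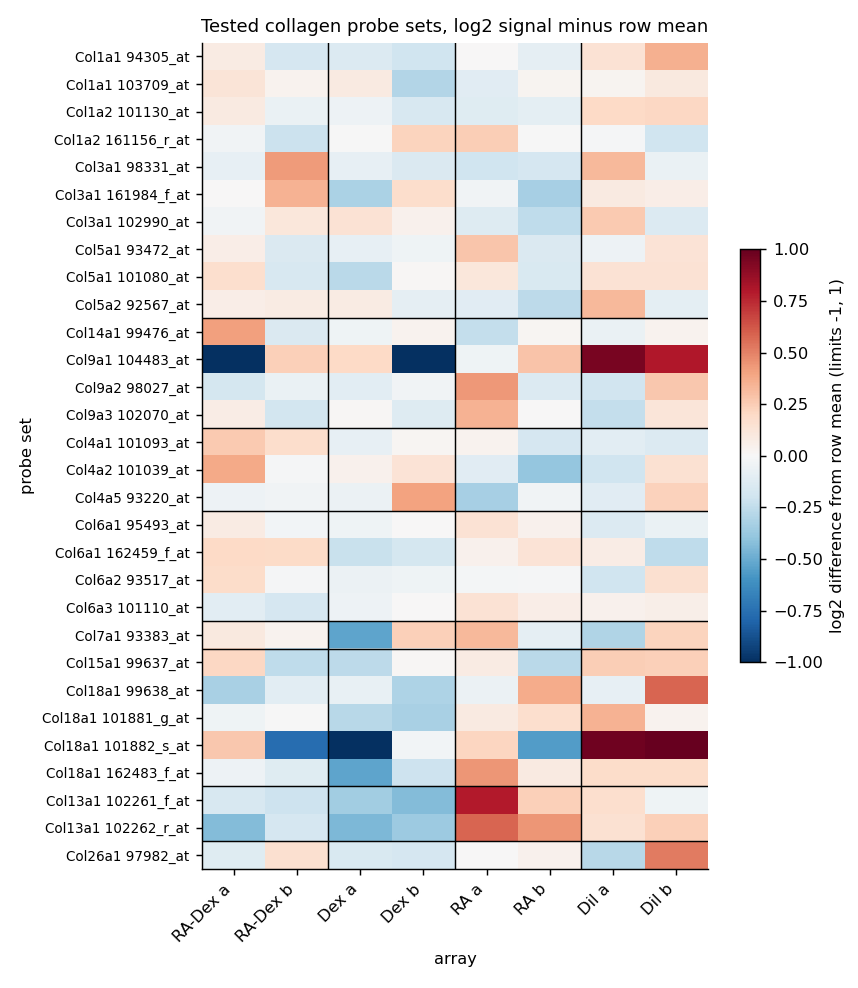
Log2 signal of the 30 tested collagen probe sets on the 8 arrays, minus the mean of each row, with black lines between groups of arrays and between kinds of collagen, and colours limited to -1 and 1. Col13a1 is blue in all 4 dexamethasone arrays, and Col9a1 and Col18a1 101882_s_at are red in both Dil arrays.

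The type IV chains of the basement membrane network were the class whose 3 tested genes all had positive values in the average dexamethasone effect, of which 0 passed. The multiplexins, also collagens of basement membranes, had negative values and are given below. Type IV collagen of most tissues is built from 2 chains of Col4a1 and 1 of Col4a2, whose genes lie head to head, and in the RefSeq annotation their transcripts overlap by 22 bases at the starts. Col4a1 had signals of 18565 and 17508 in RA-Dex and 14671 and 15701 in Dex, against 15926 and 13786 in RA and 14455 and 14114 in Dil. The 2 RA-Dex arrays were above the 6 others. Col4a2 had 21393 and 16307 in RA-Dex and 16945 and 18086 in Dex, against 15227 and 12606 in RA and 14368 and 18291 in Dil. Dil array b was above every dexamethasone array but RA-Dex array a.

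The average dexamethasone effect was 0.18 ± 0.0863 for Col4a1 and 0.27 ± 0.12 for Col4a2, and neither passed (adjusted p = 0.249 and 0.22). RA-Dex against RA gave 0.28 ± 0.122 and 0.43 ± 0.169 (adjusted p = 0.287 and 0.236), and Dex against Dil gave 0.09 ± 0.122 and 0.11 ± 0.169 (adjusted p = 0.818 and 0.836). Col4a5, a chain of the network known from the kidney glomerulus, gave 0.13 ± 0.189 (adjusted p = 0.776). Its partners had little signal. Col4a3 was at 7.87 to 102 over the 8 arrays, at or under the floor on 7, and Col4a4 at 40.4 to 209, at or under the floor on 2, and neither was tested.

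Type VI collagen, the beaded filament that links cells to the interstitial matrix, is assembled from 1 chain each of Col6a1, Col6a2 and Col6a3. Their average dexamethasone effects were 0.00 ± 0.0833 for Col6a1 by 95493_at, 0.03 ± 0.106 for Col6a2 and -0.16 ± 0.0842 for Col6a3. The 95% intervals of the 3 were -0.18 to 0.19, -0.20 to 0.27 and -0.35 to 0.03. Col6a3 had 8824 and 8465 in RA-Dex and 9148 and 9534 in Dex, against 10514 and 9951 in RA and 9803 and 9879 in Dil. All 4 dexamethasone arrays of Col6a3 were below all 4 others, and the change did not pass (adjusted p = 0.319). Col6a1 by 95493_at had 13382 and 12459 in RA-Dex, 12268 and 12701 in Dex, 13997 and 13085 in RA, and 11552 and 12097 in Dil, with both Dil arrays the lowest. Its probe set 162459_f_at had 2688 and 2667 in RA-Dex, above the 6 others, which lay between 1961 and 2571.

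**Figure D4:**
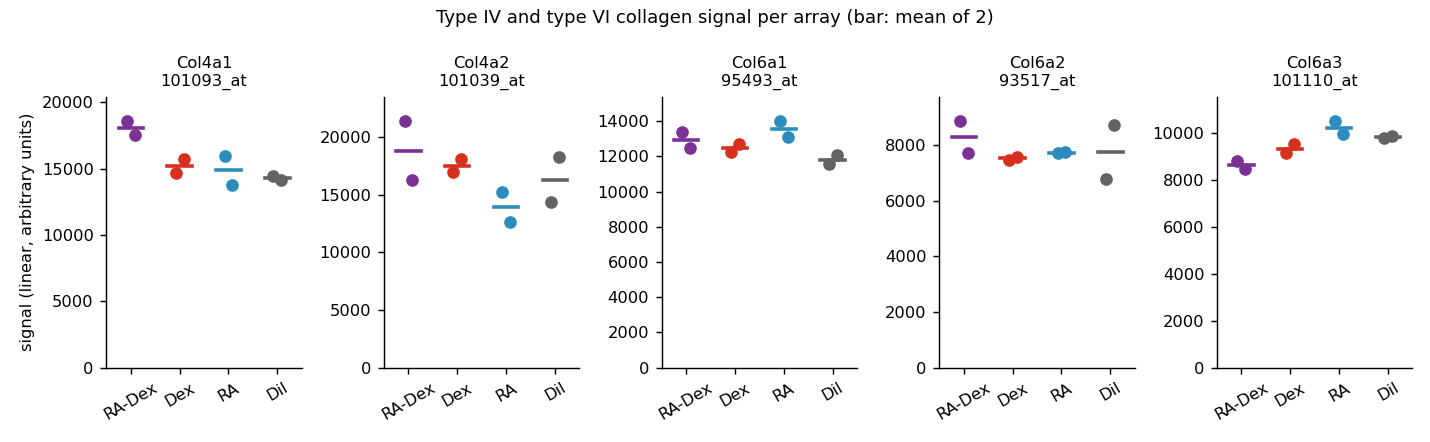
Signal of type IV and type VI chains on each array, by group, on linear axes from 0, with points for arrays and bars for the mean of 2. Both RA-Dex arrays of Col4a1 (18565 and 17508) lie above the 6 others, and the 4 dexamethasone arrays of Col6a3 lie below the other 4 by a small margin.

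Col18a1 and Col15a1 encode the multiplexins, basement membrane collagens whose ends carry heparan or chondroitin sulfate chains. The C-terminal fragment of type XVIII collagen is endostatin, known to restrain endothelial growth. All 4 tested Col18a1 probe sets had negative average dexamethasone effects, and 0 of them passed. The values were -0.40 ± 0.168 for 99638_at, -0.32 ± 0.147 for 101881_g_at, -0.45 ± 0.23 for 162483_f_at and -0.81 ± 0.314 for 101882_s_at (adjusted p = 0.189, 0.24, 0.296 and 0.159). For 101881_g_at the signals were 594 and 608 in RA-Dex and 505 and 488 in Dex, against 651 and 686 in RA and 776 and 626 in Dil. For 162483_f_at they were 267 and 255 in RA-Dex and 192 and 240 in Dex, against 376 and 294 in RA and 315 and 315 in Dil. In both probe sets all dexamethasone arrays were below all others and the Dex arrays were the lowest of all.

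The Col18a1 readings disagreed on where the signal was high. Probe set 101882_s_at had 441 and 216 in RA-Dex, 171 and 360 in Dex, 425 and 249 in RA, and 719 and 735 in Dil. The Dil pair was tight and above the rest, while the replicates of the other 3 groups differed widely. Dex against Dil was -1.55 ± 0.444 (adjusted p = 0.0989), RA-Dex against RA was -0.08 ± 0.444 (adjusted p = 0.961), and the difference between them was 1.48 ± 0.627 (adjusted p = 0.873). Probe set 99638_at had 1548 and 1801 in RA-Dex, 1832 and 1562 in Dex, 1854 and 2501 in RA, and 1822 and 2897 in Dil, so 1 Dil array lay among the dexamethasone arrays and the other was the highest of all. The probe set 101880_at of Col18a1 was at 11 to 96.3 and was not tested. Col15a1 had 688 and 498 in RA-Dex, 496 and 601 in Dex, 629 and 494 in RA, and 706 and 700 in Dil. Its average dexamethasone effect was -0.15 ± 0.171 (adjusted p = 0.70).

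Col18a1 has 2 annotated starts in RefSeq that lie 52.8 kb apart, and the files do not say which transcript each probe set reads. The 250 bases before each are given to show that they differ. The upstream one is chr10:77166531-77166780 and the downstream one chr10:77113706-77113955 (GRCm38.p6, minus strand), and capitals mark ATTGG, the reverse complement of CCAAT, which the second window lacks.
Col18a1, upstream start: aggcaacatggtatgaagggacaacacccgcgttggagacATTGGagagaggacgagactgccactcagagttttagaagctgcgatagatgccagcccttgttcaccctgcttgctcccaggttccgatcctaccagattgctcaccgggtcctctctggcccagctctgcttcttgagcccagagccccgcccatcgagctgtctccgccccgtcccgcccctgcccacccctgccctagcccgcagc
Col18a1, downstream start: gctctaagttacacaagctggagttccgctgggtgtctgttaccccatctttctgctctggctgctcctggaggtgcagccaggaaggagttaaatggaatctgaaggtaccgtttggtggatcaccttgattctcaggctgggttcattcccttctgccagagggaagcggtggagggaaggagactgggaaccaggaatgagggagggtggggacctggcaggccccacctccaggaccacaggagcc
The upstream window also holds the GC box GGGCGG on its reverse strand, and neither window holds AGAACA or TATAAA.

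Fibril-associated collagens sit on the surface of fibrils. Type IX, with chains Col9a1, Col9a2 and Col9a3, is best known from cartilage and the eye. Col9a1 had 129 and 390 in RA-Dex, 380 and 158 in Dex, 321 and 404 in RA, and 641 and 576 in Dil. Replicates of the RA-Dex and Dex groups differed by more than 2-fold, and both Dil arrays were above the rest. The average dexamethasone effect was -0.997 ± 0.37 (adjusted p = 0.142), and Dex against Dil was -1.31 ± 0.523 (adjusted p = 0.261). Col9a2 and Col9a3 (102070_at) did not share this order, with 534 and 734, and 435 and 556, in Dil. Their average dexamethasone effects were -0.19 ± 0.179 and -0.12 ± 0.174. Cartilage and bone markers other than collagens summed to 1709 to 1847 in RA-Dex, 1109 to 1641 in Dex, 1804 to 1886 in RA and 1366 to 1790 in Dil. Chad and Alpl carry most of this sum. Of the 8 markers, Matn1 and Hapln1 were at the floor on all arrays. Acan, up to 247 (RA-Dex array a), and Ibsp, up to 265 (RA-Dex array b), were above the floor on some arrays and under it on others. The part of cartilage in the Col9a1 values was not tested. Col14a1, a fibril-associated chain of interstitial fibroblasts, had 502 to 736 in RA-Dex, 537 to 567 in Dex, 471 to 562 in RA and 529 to 568 in Dil, with an average dexamethasone effect of 0.12 ± 0.173.

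**Figure D5:**
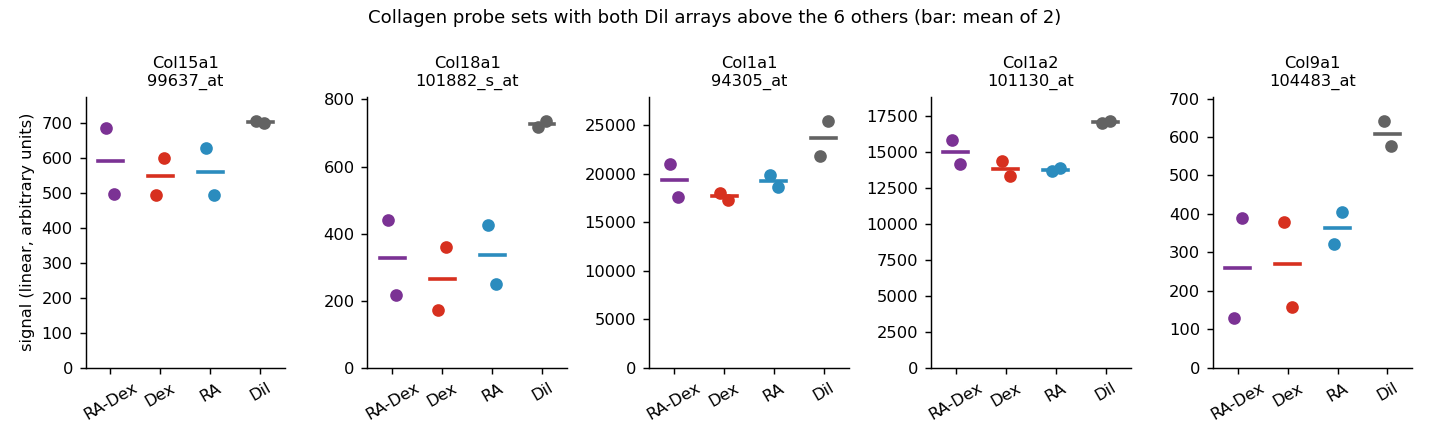
Signal per array of the 5 collagen probe sets whose 2 Dil arrays lie above the 6 others, by group, on linear axes from 0, with points for arrays and bars for the mean of 2. The gap is small for Col15a1 (700 and 706 against at most 688) and wide for Col18a1 101882_s_at (719 and 735 against at most 441).

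Across the 30 tested probe sets, both Dil arrays were above the 6 others in 5 (Col1a1, Col1a2, Col9a1, Col15a1 and Col18a1), against 6.2% of all tested probe sets, and below them in 1, against 5.24%. Both RA-Dex arrays were above in 2 and below in 1 (4.71% and 6.06% of all). Both Dex arrays were above in 0 and below in 3 (3.04% and 4.6%), and both RA arrays were above in 3 and below in 2 (6.33% and 4.5%). The 3 with the RA arrays on top were both Col13a1 probe sets and Col6a3, and the 3 with the Dex arrays lowest were Col13a1 by 102261_f_at and Col18a1 by 101881_g_at and 162483_f_at. The counts are small, and no test was made of them.

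Col7a1, the anchoring fibril of stratified epithelia, had 616 and 588 in RA-Dex, 399 and 678 in Dex, 721 and 541 in RA, and 468 and 670 in Dil, with an average dexamethasone effect of -0.08 ± 0.21. Col26a1 had 262 and 319 in RA-Dex, 257 and 254 in Dex, 286 and 294 in RA, and 236 and 410 in Dil, with an average effect of -0.14 ± 0.249. In both genes the dexamethasone arrays overlapped with the others, and neither effect passed (adjusted p = 0.878 and 0.81).

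The chains below the filter included several that are known from tissues other than lung parenchyma. The cartilage chains Col2a1, Col10a1, Col11a1 and Col11a2 lay between 28.0 and 366, with Col11a2 at or under the floor on all 8 arrays. Col22a1, of muscle and tendon junctions, was at 8.37 to 26.0, under the floor throughout. Col17a1, the transmembrane collagen of hemidesmosomes, was at 36.6 to 65.1 on 7 arrays and at 197 on Dil array b, where the squamous epithelium sum was 5473, above the 6 treated arrays and below Dil array a at 9354. Col8a1, a short-chain network collagen of vessels, lay between 64.1 and 284. The 2 probe sets of Col12a1 and the 1 of Col19a1 lay between 21.8 and 220, and the second probe set of Col9a3 between 10.5 and 132. The low values allow no statement on a treatment effect, since most sit near the floor. The weakest tested member was 162483_f_at of Col18a1, with a mean signal of 276.7, and the strongest untested one was Col2a1 at 183.7.

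The effect of dexamethasone was next taken apart by the day 3 treatment. In Dex against Dil, 0 of 30 collagen probe sets passed, against 3.23% of all, and 7 had an unadjusted p under 0.05 in limma, all lower in Dex, against 14.9% of all in either direction. The 2 groups did not overlap in 12 probe sets with Dex lower and in 3 with Dex higher, where 24.6% and 21.1% of all did so. In RA-Dex against RA, 0 of 30 passed, against 3.5% of all, and 4 had an unadjusted p under 0.05, against 15.8%. There the groups did not overlap in 7 probe sets with RA-Dex lower and 9 with RA-Dex higher (26.3% and 18.5% of all). In the average over both arms, the 4 dexamethasone arrays did not overlap with the 4 others in 5 probe sets, all lower, and in 0 higher, against 7.78% and 6.8% of all.

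The 2 arm-wise effects, which have no array in common, had the same sign in 19 of 30 collagen probe sets, or 63.3%, and in 62.2% of all. Across probe sets their correlation was 0.48 for the 30 collagen probe sets and 0.50 for all 7309, as a description of points that share arrays and, in part, genes. The median was -0.14 in Dex against Dil and 0.00 in RA-Dex against RA, where the medians of all probe sets were -0.02 and -0.05. The interaction, the effect after retinoic acid minus that without, passed in 0 of 30, against 0.0137% of all, and had an unadjusted p under 0.05 in 4, against 5.6%. Those 4 were Col1a1 (94305_at), Col1a2 (101130_at), Col3a1 (98331_at) and Col18a1 (101882_s_at), with values of 0.42 ± 0.185, 0.42 ± 0.167, 0.60 ± 0.259 and 1.48 ± 0.627. The other probe set of Col1a2 had the opposite sign (-0.46 ± 0.245). That of Col1a1 gave 0.29 ± 0.209, and those of Col3a1 gave 0.20 ± 0.268 and 0.51 ± 0.304. The other tested Col18a1 probe sets gave smaller values of 0.34 ± 0.295, 0.20 ± 0.46 and 0.07 ± 0.336. Of the 30 values 22 were positive, with a median of 0.21, against -0.02 over all. In each the interaction rests in part on the Dil arrays, whose muscle and squamous marker sums were given above.

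Retinoic acid left no collagen probe set past the threshold. Averaged over the day 4 treatment, 0 of 30 passed, against 0.15% of all, and 2 had an unadjusted p under 0.05, against 6.29%. These were Col13a1 by 102261_f_at (0.33 ± 0.139, adjusted p = 0.765) and Col6a1 by 162459_f_at (0.29 ± 0.114, adjusted p = 0.723). The median was 0.01 over the collagens and 0.00 over all, and for 23 of 30 the 95% interval lay within 1.5-fold, against 61.2% of all. In RA against Dil 0 of 30 passed and 4 had an unadjusted p under 0.05, against 0.0274% and 7.99% of all. In RA-Dex against Dex 0 passed and 1 had an unadjusted p under 0.05, against 0.0958% and 4.13%.

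Whether the enzymes and partners of collagen moved was read from 6 lists of 82 genes, chosen with earlier results of these data known. Of 53 genes tested, 6 rose and 1 fell with dexamethasone, where 4.26% and 3.57% of all tested probe sets did so. Their median was -0.05, and 16 of 53 had an unadjusted p under 0.05, against 21.3% of all. The cross-linking enzyme lysyl oxidase, Lox, had signals by 160095_at of 3750 and 4333 in RA-Dex and 2647 and 3392 in Dex, against 1327 and 1091 in RA and 1039 and 890 in Dil. It rose 3.23-fold (1.69 ± 0.134, adjusted p = 2.75e-05), but its other probe set, 161177_f_at, gave -0.52 (adjusted p = 0.421). P4ha2, a subunit of the prolyl hydroxylase that lets the triple helix stay folded at body temperature, had 1862 and 1446 in RA-Dex and 1640 and 1844 in Dex, against 1033 and 1029 in RA and 834 and 1014 in Dil. It rose 1.73-fold (0.79 ± 0.136, adjusted p = 0.00469), and its second probe set gave 0.65 (adjusted p = 0.0572).

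Timp3, an inhibitor of matrix metalloproteinases, had 8326 and 9166 in RA-Dex and 7288 and 7105 in Dex, against 4819 and 3612 in RA and 3854 and 3305 in Dil, a rise of 2.05-fold (1.04 ± 0.116, adjusted p = 0.000268). Dpt, dermatopontin, which binds decorin and speeds fibril formation, had 2887 and 3622 in RA-Dex and 2926 and 2747 in Dex, against 1265 and 1703 in RA and 2259 and 2078 in Dil. It rose 1.70-fold (0.76 ± 0.133, adjusted p = 0.00509; 0.0673 with no filter). For all 4 genes the dexamethasone arrays lay above the others.

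The other 3 calls were less firm when single arrays were left out. Without both Dil arrays those of Ogn and Mrc2 were lost (adjusted p = 0.452 and 0.209). That fit compares with RA alone and so also holds any effect of retinoic acid, whose average was 0.58 ± 0.154 for Ogn. The loss therefore does not measure how firm the dexamethasone call is. Ogn, a small leucine-rich proteoglycan, rose (0.60 ± 0.154, adjusted p = 0.038) and lost its call in 6 of the 8 fits without 1 array, where adjusted p ran up to 0.166. Mrc2, a receptor that takes up collagen fragments, fell (-0.86 ± 0.221, adjusted p = 0.0394) and lost its call in 5 of 8, with adjusted p up to 0.158. Lama4, a laminin chain of vessel basement membranes, rose (0.61 ± 0.129, adjusted p = 0.0149) and lost its call in 3 of 8, with adjusted p up to 0.0729.

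By list, 1 of 13 genes for collagen folding and modification rose (P4ha2), as did 1 of 5 for procollagen cleavage and cross-linking (Lox), 2 of 13 for proteins that bind collagen (Dpt and Ogn), 1 of 5 for degrading enzymes and their inhibitors (Timp3) and 1 of 13 for basement membrane partners (Lama4), while 1 of 4 receptors fell (Mrc2). These counts stand against 4.26% of all tested probe sets that rose and 3.57% that fell. Of the 10 measured degrading enzymes and inhibitors only 5 passed the filter. Mmp8, an enzyme of that list, did not pass it and was not tested. Its signals were 300 and 515 in RA-Dex and 364 and 391 in Dex, against 44.1 and 41.9 in RA and 44.7 and 49.7 in Dil. The RA and Dil values of Mmp8 lie under the floor. The other untested genes of that list did not show this order. The lists' median log2 fold changes were -0.05, -0.10, 0.01, -0.25, 0.09 and -0.18, against -0.03 over all. In the average effect of retinoic acid 0 of the 53 genes passed in limma, against 0.15% of all, and 2 had an unadjusted p under 0.05, against 6.29%. In the interaction 0 passed, against 0.0137%, and 6 had an unadjusted p under 0.05, against 5.6%.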

How the data were processed

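The deposited values are linear intensity signals, 1 per probe set and array; no header or label states the software, and the values show that the authors had scaled each array to a common level, with trimmed means of 800.4 on all 8 arrays. Signals under 85.3, the pooled 25th percentile, were set to that floor, and log2 was taken. Of 12422 probe sets without controls, 7309 were tested, those whose mean log2 exceeded that of signal 200.8, the 40th percentile of all signals. Symbols came from the platform annotation, and all 44 members matched a current gene by Entrez ID. The groups come from the sample titles.

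All 8 arrays entered 1 fit of limma 3.58.1 (R 4.3.3), with 1 mean per group and an intensity trend, two-sided, 4 residual and 6.69 prior degrees of freedom, for 7 contrasts. Benjamini-Hochberg adjustment of each p-value ran over all 7309, with 0.05 as the threshold. Errors are SE of the log2 fold change. The fit was tested on simulated data.

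All collagen probe sets could be named, and of other genes up to 4 of each list by smallest adjusted p among those past the threshold, each by its probe set of highest mean. List genes named for their signals alone fall outside this rule. Members, lists and tests were chosen with earlier results of these data known. The alternatives were quantile normalization, no filter, a stricter filter, a pseudocount for the floor, other variance models, the replicate letter as a block, each array left out and, chosen after seeing the data, both Dil arrays left out. The number of arrays limits the precision. No fold change was taken between probe sets. The marker sums and the weakest and strongest members named do set signals of different probe sets together.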

Additional observations from a re-analysis of the deposited data

How the results depend on the processing

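Across 16 alternatives, 0 of 225 fold changes compared reversed a call. Only those called in the main fit could do so, and most of the 225 were not called. Several called ones kept their sign but lost the call in some alternatives. The 2 collagen probe sets lower with dexamethasone became 1 when low signals were kept, 1 when the variance was not tied to intensity, and 0 to 2 when 1 array was left out. In RA-Dex against RA the count of 0 became 1 with the stricter filter (Col13a1, 102262_r_at), and 0 to 1 when 1 array was left out. Over all tested probe sets the average dexamethasone effect called 572, against 349 when low signals were kept, and 307 to 542 when 1 array was left out. All other collagen counts, each 0, stayed at 0 in every alternative run. Deviations of same-letter arrays correlated at -0.22 to 0.14 over the 6 pairs of groups, above 0.1 in 2 of them. No label says what the letters a and b stand for, so these values do not settle whether they pair the arrays. With the replicate block the collagen counts did not change (2 lower with dexamethasone), and the Col13a1 values were -0.71 (adjusted p = 0.0264) and -0.58 (0.0312), whereas Ogn and Mrc2 lost their calls (0.0632 and 0.0643). With 2 arrays per group, the median SE of a collagen change was 0.137 for the average effects and 0.194 between 2 groups.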
